A study of Homo sapiens with 18 samples.

Results

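Transcripts of 9 genes of hyaluronan and heparan sulfate, 2 sugar polymers of the cell surface and the extracellular matrix, were followed in DLD1 cells, a long-established line from a human colorectal adenocarcinoma. HAS3 and HS3ST1 were selected from the measured values, because both were higher than in the control with each of 2 guides. HAS2, CD44, EXT1, EXT2, NDST1, SDC1 and SDC4 were set beside them by function. These are 9 of the 47021 genes in the table, and all 9 passed the filter on low counts. The comparisons that selected HAS3 and HS3ST1 are therefore given for them as values without a test.

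The cells were infected with lentivirus, kept in 10 µg/ml puromycin and carried a control guide (sgC, labelled wild type) or guide 1 (sgZ1) or guide 3 (sgZ3), the latter both labelled as ZNF692 knockout. ZNF692 encodes a zinc-finger protein, and the question of the design is which transcripts differ between DLD1 cells and these derivatives. Each guide had 3 poly(A) RNA libraries. All groups are labelled as DLD1 and share the lentiviral infection and the drug selection. The labels do not say whether a line was a single clone or a pool, nor whether the replicates were independent cultures. The p-values therefore cover only the spread among these libraries, and that spread may be technical.

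Hyaluronan is an unsulfated polymer of glucuronic acid and N-acetylglucosamine that HAS enzymes extrude through the plasma membrane, and CD44 is its main surface receptor. Heparan sulfate is instead built in the Golgi on a core protein such as a syndecan. The EXT1 and EXT2 proteins polymerise its chain, NDST1 starts its modification by exchanging acetyl for sulfate groups, and the 3-O-sulfotransferase HS3ST1 adds a rare late sulfate known from the antithrombin-binding site. In intestinal epithelium SDC1 and SDC4 carry much of the cell-surface heparan sulfate, which binds growth factors and matrix proteins.

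Total counts per library ran from 16044224 to 24535642, and levels are given in CPM, counts scaled to a fixed library total, on TMM-scaled library sizes. Summed markers of colorectal epithelium were at 8771 to 11812 CPM in all 9 libraries, with EPCAM at 959 to 1550 CPM. Among them LGALS4 was at 1.49 to 4.72 CPM and CDX1 at 0.868 CPM or less. In sgZ1 against sgC, EPCAM, CDX2, CDH17 and LGALS4 were lower at an edgeR adjusted p under 0.05, as were 10.3% of all genes tested. In sgZ3 against sgC, EPCAM, KRT8 and KRT18 were higher, as were 19.2% of all genes tested. No other of these markers passed in either comparison. ZNF692 itself was not lower in the libraries labelled knockout, at 6.18 to 7.01 CPM in sgC, 9.64 to 11.5 CPM in sgZ1 and 6.29 to 8.08 CPM in sgZ3. Since small CRISPR deletions need not lower an mRNA, this does not check the labels. The sgZ1 libraries stood apart in MSH6, which acts in mismatch repair and is deficient in DLD1. Its level there was 67.3 to 74.8 CPM against 4.40 to 9.48 CPM in the other 6 libraries. They also stood apart in PAX2, at 1.47 to 2.96 CPM against at most 0.135 CPM. PAX2 was 1 of 5 markers listed for embryonic kidney packaging cells, and the rest did not follow it. LHX1 overlapped between sgZ1 and sgC, and SIM1 had 0 counts in both. WT1 exceeded 0.0677 CPM only in sgZ1 replicate 2 and sgZ3 replicate 3. EYA1 was lower in every sgZ1 library than in any sgC library. Whether the sgZ1 libraries come from the same DLD1 parent as the others was not tested, so each fold of sgZ1 against sgC can also hold a difference between parental cells. The comparison of sgZ3 with sgC has no sgZ1 library on either side, though its filter, scaling and spread were estimated with the sgZ1 libraries included. Summed markers of fibroblasts and mesenchyme were at 123 CPM in sgZ1 replicate 2 and 132 CPM in sgZ3 replicate 3 against 6.97 to 8.82 CPM in the other 7 libraries. Of the 10 markers all had a count somewhere, VIM stood at 22.9 and 21.2 CPM in these 2 libraries, and COL1A2, DCN and LUM stayed at or under 0.0853 CPM throughout. Leukocyte markers summed to at most 0.584 CPM, with CD68 at 0, and endothelial markers to at most 3.88 CPM. The part of these markers in the results below was not tested. In such bulk samples, fewer cells with a transcript and less of it per cell cannot be told apart.

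The promoter windows of the 3 genes with the largest differences, HAS3, HS3ST1 and SDC1, are shown because the results turn on them. Each runs from 250 bases before to 50 bases after the RefSeq start (GRCh38.p14), read 5′ to 3′ on the gene's strand. Capitals mark matches to an E-box (CACGTG) or a GC box (GGGCGG, or CCGCCC where it lies on the other strand).
HAS3: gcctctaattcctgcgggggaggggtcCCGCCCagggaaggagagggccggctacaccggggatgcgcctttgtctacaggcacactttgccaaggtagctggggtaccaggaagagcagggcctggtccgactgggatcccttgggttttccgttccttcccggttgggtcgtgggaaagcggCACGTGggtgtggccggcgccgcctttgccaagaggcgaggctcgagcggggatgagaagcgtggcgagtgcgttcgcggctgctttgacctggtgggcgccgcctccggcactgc
HS3ST1: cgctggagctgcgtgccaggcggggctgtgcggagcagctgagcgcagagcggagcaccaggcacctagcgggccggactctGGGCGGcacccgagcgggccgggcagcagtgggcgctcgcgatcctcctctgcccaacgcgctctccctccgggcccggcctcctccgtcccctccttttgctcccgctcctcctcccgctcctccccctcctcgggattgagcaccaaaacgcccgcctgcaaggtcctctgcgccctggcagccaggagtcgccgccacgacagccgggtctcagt
SDC1: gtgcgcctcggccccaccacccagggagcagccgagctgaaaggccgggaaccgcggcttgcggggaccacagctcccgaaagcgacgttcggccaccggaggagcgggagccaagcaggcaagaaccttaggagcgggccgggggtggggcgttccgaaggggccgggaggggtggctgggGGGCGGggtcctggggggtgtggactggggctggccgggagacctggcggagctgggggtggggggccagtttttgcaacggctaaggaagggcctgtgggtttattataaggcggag
The windows lie at chr16:69107290-69107589 on the plus strand, chr4:11428845-11429144 on the minus strand and chr2:20225081-20225380 on the minus strand. Their GC contents were 67%, 73% and 70.67%, against a median of 58.67% over 35116 windows of 300 bases. The HAS3 window held 1 E-box, a motif found in 7.256% of all windows, and the other two windows held 0. Each of the 3 held 1 GC box, found in 44.95% of all windows. Searched on both strands, none of the 3 held the CCAAT box, the TATA box (spelled TATAAA) or the AP-1 site (spelled TGANTCA), which occur in 34.61%, 11.53% and 7.709% of windows. These matches describe the letters in the windows only, and no binding was measured. The start of transcription used by DLD1 was not measured either, and the RefSeq starts of all 3 lie inside their GENCODE 29 genes.

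Among the 7 genes chosen by function, SDC1 alone passed the test over both guides against sgC, as 1 gene higher and 0 lower. Of all 14732 genes tested, 18.6% were called higher and 14.6% lower in that comparison, so this count is close to the background. In sgZ1 against sgC, 0 of the 7 were higher and 1, SDC4, was lower (background 15.5% and 10.3%). In sgZ3 against sgC, 2 were higher, EXT2 and SDC1, and 0 lower (19.2% and 17.1%). The median log2 fold changes of the 7 were 0.03, -0.07 and 0.13 in these comparisons, beside medians over all genes of 0.0078, 0.011 and -0.018. The 2 guides were set against the same 3 sgC libraries, so their comparisons are not independent. Between the guides, sgZ3 against sgZ1, 3 of the 7 were higher (EXT2, SDC1 and SDC4) and 0 lower, where 12.8% and 15.8% of all genes were called. HAS3 and HS3ST1 were lower there too. They had been picked on values of the same libraries, so they are left out of that count. The 9 genes had a median of 0.20 there, and all genes had one of -0.012.

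The split of calls over all genes moved with the scaling of the libraries. Over both guides 56.0% of calls were higher with TMM, 45.9% with upper-quartile factors and 36.6% with library totals alone. For sgZ3 against sgC these shares were 52.9%, 41.5% and 29.6%, and for sgZ3 against sgZ1 they were 44.7%, 37.7% and 27.0%. Library totals also moved the median of all genes to -0.17 for sgZ3 and to -0.12 between the guides, and relative to that median SDC1 stood at 0.90 and EXT2 at 0.36 in sgZ3 against sgC. For sgZ1 the shares were 60.0%, 54.8% and 52.1%.

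**Figure D1:**
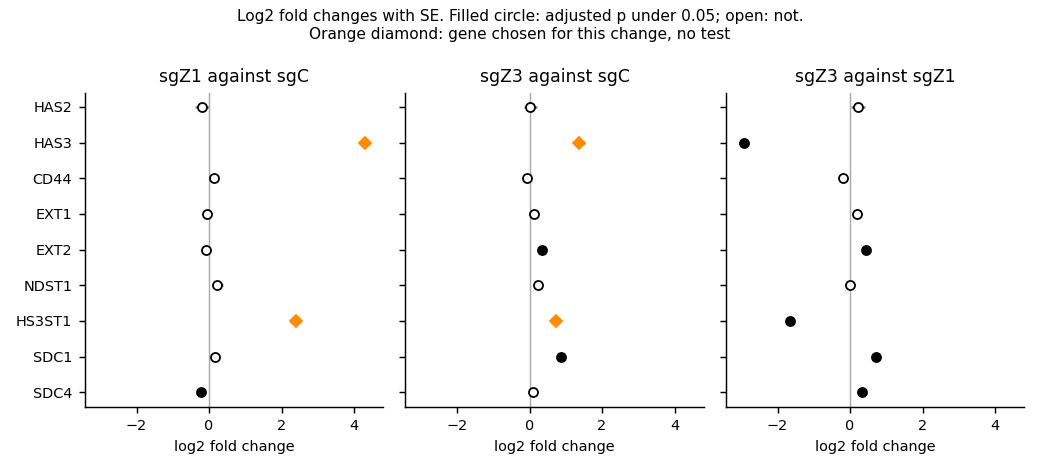
Log2 fold change (x axis) of each of the 9 genes (y axis) in 3 comparisons, with bars for the standard error, filled circles for adjusted p under 0.05, open circles for genes that did not pass and orange diamonds for HAS3 and HS3ST1, selected on those comparisons and not tested there. HAS3 stands at 4.29 for sgZ1 and 1.37 for sgZ3, while the other 7 genes lie between -0.23 and 0.88 against sgC.

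HAS3 makes hyaluronan and showed the largest difference among the 9 genes. The gene (ENSG00000103044.11) lies on chromosome 16, bases 69105564 to 69118719 of the plus strand (GRCh38). Its level was 2.19, 2.84 and 2.69 CPM in the sgC libraries, from 45 to 63 counts each. In sgZ1 it was 49.3, 46.8 and 55.4 CPM, and in sgZ3 it was 7.17, 5.80 and 7.05 CPM. The 3 groups did not overlap: every sgZ1 library stood above every sgZ3 library, and every sgZ3 library above every sgC library. The group means were 2.57 ± 0.338, 50.5 ± 4.41 and 6.68 ± 0.760 CPM (SD, n = 3). Against sgC, the value that selected the gene, HAS3 was 19.6-fold higher in sgZ1 (log2 fold change 4.29, SE 0.14) and 2.59-fold higher in sgZ3 (1.37, SE 0.15). Between the guides, a contrast the selection did not use though its libraries are the same, HAS3 was lower in sgZ3 by a log2 difference of -2.92 (SE 0.13, edgeR adjusted p = 3.42e-08). The 2.59-fold value in sgZ3 compares no sgZ1 library, the libraries with high MSH6 and PAX2, though the scaling and the spread were estimated with them. On the opposite strand CHTF8 shares 365 exon bases with HAS3, and CHTF8 was counted 274 times over the 9 libraries against 3839 for HAS3. The strand setting of the counting is not given in the sources used here, so reads of the shared bases cannot be told apart.

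HAS2, which makes longer hyaluronan chains in many cell types, was the only other synthase with enough reads to test. Its level was 4.92, 3.59 and 4.31 CPM in sgC, 4.15, 3.36 and 3.70 CPM in sgZ1 and 3.38, 4.45 and 5.13 CPM in sgZ3. All 3 groups overlapped. HAS2 did not pass the test in sgZ1 against sgC (log2 fold change -0.20, SE 0.19, edgeR adjusted p = 0.47), in sgZ3 (0.022, SE 0.19, 0.94) or between the guides (0.22, SE 0.19, 0.40). With 50 to 101 counts per library, this SE leaves small differences undetectable. HAS1 did not pass the low-count filter. The antisense gene HAS2-AS1 shares 201 exon bases with HAS2 and was counted 126 times against 748 for HAS2. Per kilobase of exon, the ratio of HAS3 to HAS2 was 0.491 ± 0.137 in sgC, 10.8 ± 1.24 in sgZ1 and 1.27 ± 0.358 in sgZ3 (SD, n = 3). By this ratio HAS3 was the scarcer synthase transcript in sgC and the more abundant one in every sgZ1 library. In sgZ3 the ratios were 1.68, 1.03 and 1.09, close to even in replicates 2 and 3.

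**Figure D2:**
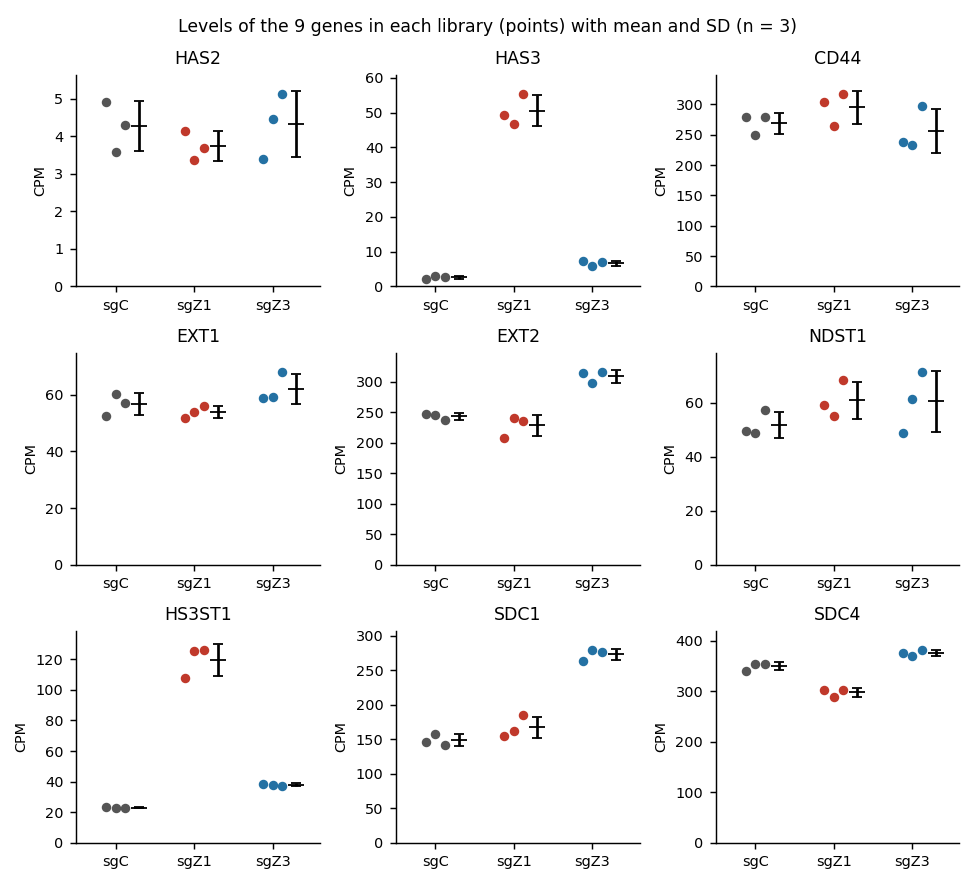
Level in CPM (y axis, linear and from 0) of each gene in each of the 9 libraries (points, by guide), with the group mean and SD (n = 3). HAS3 and HS3ST1 separate all 3 groups, SDC1 in sgZ3 (264 to 279 CPM) stands above both other groups, and HAS2, CD44 and NDST1 overlap across the groups.

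CD44 binds hyaluronan at the cell surface and is widely expressed in colorectal epithelium. The gene lies on chromosome 11, bases 35138870 to 35232402 of the plus strand (GRCh38). Its level was 280, 249 and 279 CPM in sgC, 304, 264 and 318 CPM in sgZ1 and 239, 233 and 298 CPM in sgZ3. The groups overlapped, and in sgZ3 the highest library was replicate 3, which carries the mesenchymal transcripts. CD44 did not pass the test in sgZ1 (log2 fold change 0.13, SE 0.11, edgeR adjusted p = 0.41), in sgZ3 (-0.07, SE 0.11, 0.65) or between the guides (-0.20, SE 0.11, 0.19). Without both sgZ1 replicate 2 and sgZ3 replicate 3, the 2 libraries with those transcripts, CD44 was called lower in sgZ3 against sgC (-0.24, edgeR adjusted p = 0.014) and against sgZ1 (-0.43, 0.000158). Leaving out sgZ3 replicate 3 alone also gave a call between the guides (-0.32, edgeR adjusted p = 0.0217). The joint setting was chosen after seeing the data.

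EXT1 and EXT2 together form the polymerase that extends the heparan sulfate chain, and only EXT2 passed a test. EXT2 lies on chromosome 11, bases 44095549 to 44245429 of the plus strand (GRCh38). Its level was 247, 246 and 237 CPM in sgC, 208, 241 and 236 CPM in sgZ1 and 315, 297 and 316 CPM in sgZ3. All sgZ3 libraries stood above all others, while sgC and sgZ1 overlapped. EXT2 rose 1.27-fold in sgZ3 against sgC (log2 fold change 0.34, SE 0.084, edgeR adjusted p = 0.00855) and was also higher in sgZ3 than in sgZ1 (0.44, SE 0.084, 0.00231). In sgZ1 against sgC its value was -0.09 (SE 0.084, edgeR adjusted p = 0.45). With library totals alone the call in sgZ3 against sgC was lost (0.19, edgeR adjusted p = 0.0692).

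EXT1, the partner of EXT2, lies on chromosome 8, bases 117794490 to 118111853 of the minus strand (GRCh38). Its level was 52.7, 60.3 and 57.2 CPM in sgC, 51.9, 54.0 and 56.2 CPM in sgZ1 and 58.8, 59.2 and 68.1 CPM in sgZ3. The sgC libraries overlapped both other groups, while every sgZ3 library stood above every sgZ1 library. EXT1 did not pass the test in sgZ1 (log2 fold change -0.07, SE 0.097, edgeR adjusted p = 0.64), in sgZ3 (0.13, SE 0.097, 0.31) or between the guides (0.20, SE 0.097, 0.14). HAS2 lies on the same chromosome and strand, from 121612116 to 121641390.

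NDST1 removes acetyl groups from the nascent chain and adds N-sulfate. The gene lies on chromosome 5, bases 150485818 to 150558211 of the plus strand (GRCh38). Its level was 49.5, 48.7 and 57.4 CPM in sgC, 59.2, 55.1 and 68.5 CPM in sgZ1 and 48.7, 61.3 and 71.4 CPM in sgZ3. The groups overlapped, and sgZ3 held both the highest library and one of the lowest. NDST1 did not pass the test in sgZ1 (log2 fold change 0.23, SE 0.14, edgeR adjusted p = 0.25), in sgZ3 (0.22, SE 0.14, 0.23) or between the guides (-0.0088, SE 0.14, 0.97). Without both libraries with mesenchymal transcripts it was called higher in sgZ1 against sgC (edgeR adjusted p = 0.0268).

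HS3ST1 transfers the 3-O-sulfate and was the second gene selected on its values. The gene (ENSG00000002587.10) lies on chromosome 4, bases 11393150 to 11429765 of the minus strand (GRCh38). Its level was 23.2, 22.8 and 22.5 CPM in sgC, 108, 126 and 126 CPM in sgZ1 and 38.6, 38.1 and 36.8 CPM in sgZ3. The groups did not overlap and stood in the same order as for HAS3, with sgZ1 highest. Their means were 22.8 ± 0.336, 120 ± 10.4 and 37.8 ± 0.919 CPM (SD, n = 3). Against sgC, the value that selected it, HS3ST1 was 5.24-fold higher in sgZ1 (log2 fold change 2.39, SE 0.097) and 1.66-fold higher in sgZ3 (0.73, SE 0.095). Between the guides it was lower in sgZ3 (log2 difference -1.66, SE 0.094, edgeR adjusted p = 1.43e-07). Of its family, HS3ST3B1 gives the sites used by herpes simplex virus entry, and its transcript, part of which is near-identical to HS3ST3A1, was at 3.16 to 4.95 CPM in sgC, 4.26 to 4.48 CPM in sgZ1 and 2.98 to 4.50 CPM in sgZ3. Per kilobase of exon the ratio of HS3ST1 to HS3ST3B1 was 3.92 ± 0.881 in sgC, 18.1 ± 1.46 in sgZ1 and 6.68 ± 1.61 in sgZ3 (SD, n = 3). The lowest sgZ3 ratio (5.56) stood above the highest sgC ratio (4.75).

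The selection required a rise with both guides, and the smallest log2 fold change among the selected genes was the 0.73 of HS3ST1 in sgZ3. Of the 7 genes chosen by function, NDST1, at 0.23 in sgZ1 and 0.22 in sgZ3, and SDC1, at 0.17 and 0.88, came closest. A rise with both guides was not particular to the selected genes. In the wider pathway described below, PXYLP1 (0.70 and 0.68), GFPT2 (1.17 and 0.61), EXTL3 (0.53 and 0.66), HS6ST1 (0.45 and 0.42) and B3GAT3 (0.38 and 0.60) were called higher with each guide. GFPT1 and CSGALNACT1 were called lower with each. The share of all genes called the same way with each guide was not counted, and both guides were set against the same sgC libraries.

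SDC1 and SDC4 are membrane core proteins that carry heparan sulfate chains, and the largest tested change against sgC was in SDC1. SDC1 lies on chromosome 2, bases 20200797 to 20225433 of the minus strand (GRCh38). Its level was 146, 158 and 141 CPM in sgC, 155, 162 and 185 CPM in sgZ1 and 264, 279 and 277 CPM in sgZ3. All sgZ3 libraries stood above all others, and sgC and sgZ1 overlapped. SDC1 rose 1.84-fold in sgZ3 (log2 fold change 0.88, SE 0.092, edgeR adjusted p = 0.000152) and did not pass in sgZ1 (0.17, SE 0.091, 0.18). It was higher in sgZ3 than in sgZ1 (0.71, SE 0.091, edgeR adjusted p = 0.000156). Over both guides it was higher as well (0.53, SE 0.081, edgeR adjusted p = 0.000815).

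SDC4 lies on chromosome 20, bases 45325288 to 45348424 of the minus strand (GRCh38). Its level was 341, 354 and 353 CPM in sgC, 303, 288 and 302 CPM in sgZ1 and 376, 371 and 381 CPM in sgZ3. The 3 groups did not overlap, with sgZ1 lowest and sgZ3 highest. SDC4 fell by 0.23 on the log2 scale in sgZ1 (SE 0.074, edgeR adjusted p = 0.0364) and did not pass in sgZ3 (0.11, SE 0.073, 0.27). That call in sgZ1 was lost in 10 of 18 alternatives, among them no low-count filter (0.196) and without sgC replicate 3 (0.113). It was also lost without sgC replicate 1 (0.0897) or 2 (0.111), sgZ1 replicate 1 (0.0604) or 2 (0.0555) and sgZ3 replicate 1 (0.0583) or 2 (0.0613). SDC4 was higher in sgZ3 than in sgZ1 (0.34, SE 0.074, edgeR adjusted p = 0.00512). The ratio of SDC1 to SDC4 per kilobase was 0.309 ± 0.0175 in sgC, 0.409 ± 0.0362 in sgZ1 and 0.528 ± 0.0187 in sgZ3 (SD, n = 3). The 3 groups did not overlap in it.

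Compared between genes, levels are given per kilobase of exon (GENCODE 29), as CPM per kb. In sgC the order was SDC4 (134), EXT2 (46.1), SDC1 (41.3), CD44 (26.9), EXT1 (6.81), NDST1 (5.44), HS3ST1 (2.80), HAS2 (1.02) and HAS3 (0.486), and every neighbouring pair was separate in all libraries. In sgZ1 it was SDC4 (114), SDC1 (46.6), EXT2 (43.2), CD44 (29.5), HS3ST1 (14.7), HAS3 (9.55), EXT1 (6.49), NDST1 (6.39) and HAS2 (0.891). There SDC1 and EXT2 overlapped, as did EXT1 and NDST1. In sgZ3 it was SDC4 (144), SDC1 (76.1), EXT2 (58.5), CD44 (25.6), EXT1 (7.45), NDST1 (6.35), HS3ST1 (4.64), HAS3 (1.26) and HAS2 (1.03), with EXT1 and NDST1 overlapping, and HAS3 and HAS2. HAS3 and HS3ST1 thus stood below the chain polymerase genes in sgC and above EXT1 and NDST1 in sgZ1.

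**Figure D3:**
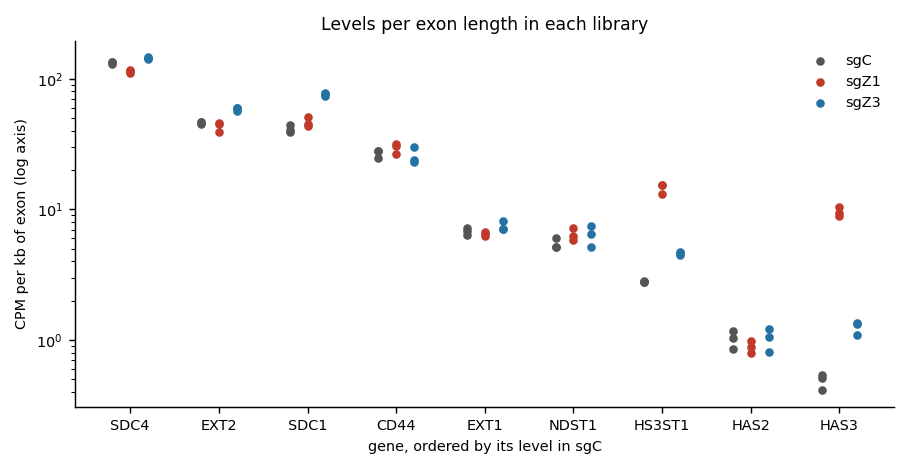
CPM per kilobase of exon (y axis, log scale) of the 9 genes (x axis, in the order of their sgC level), 1 point per library and a colour per guide. HAS3 runs from 0.486 in sgC to 9.55 in sgZ1, while SDC4 stays between 114 and 144.

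The wider pathway was described with 10 lists of 101 genes, of which 92 were not among the 9 and 72 of those were tested. Of the 20 left out by the low-count filter, 6 had 0 counts in every library. Over both guides 19 of the 72 were higher and 7 lower (background 18.6% and 14.6%), with a median log2 fold change of 0.10. In sgZ1 the counts were 16 and 9 (background 15.5% and 10.3%) with a median of -0.0028, and in sgZ3 they were 21 and 5 (19.2% and 17.1%) with a median of 0.15. Between the guides 22 were higher in sgZ3 and 11 lower (12.8% and 15.8%). These counts include HAPLN3, HS6ST2, CHST15 and VCAN, which passed the low-count filter only through sgZ1. Where these genes are called, the counts beside the background are a description only. A call over both guides is one on the mean of the guides, and 1 guide can carry it. Without sgZ1 replicate 2 and sgZ3 replicate 3, chosen after seeing the data, there were 20 and 17 over both guides (background 23.1% and 26.6%), 20 and 18 in sgZ1 (22.0% and 17.5%), 22 and 17 in sgZ3 (23.9% and 31.3%) and 23 and 22 between the guides (23.2% and 29.9%). Calls over all genes rose in that fit too. Among the genes the naming rule took, ARSG, B4GALT7, CEMIP, CHSY3, COL18A1, GPC1, HMMR, HS2ST1, HYAL2, IDS, SLC35B2 and UAP1 were among those that lost their call over both guides in at least 1 alternative. In the fit without the 2 libraries 7409 of 14923 genes passed over both guides, against 4885 of 14732.

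In the turnover and binding of hyaluronan, 2 of 5 tested enzymes and 2 of 3 tested binders besides CD44 passed over both guides. In each pair 1 was higher and 1 lower (background 18.6% and 14.6%). The higher binder is HAPLN3, which the low-count filter let in only through sgZ1, so the count of binders is a description. HYAL2, a membrane-anchored hyaluronidase, was at 146 ± 11.6 CPM in sgC, 149 ± 23.9 in sgZ1 and 236 ± 16.6 in sgZ3 (SD, n = 3), with a log2 fold change over both guides of 0.37 (edgeR adjusted p = 0.0196). CEMIP, which depolymerises hyaluronan, was lower over both guides, at 208 ± 21.3 CPM in sgC, 157 ± 37.9 in sgZ1 and 128 ± 29.6 in sgZ3 (SD, n = 3, edgeR adjusted p = 0.0201). HAPLN3, a link protein that ties hyaluronan to proteoglycans, was at 0.214 to 0.298 CPM in sgC, 6.06 to 7.83 CPM in sgZ1 and 0.135 to 0.457 CPM in sgZ3. Its log2 fold change was 4.68 for sgZ1 and 0.32 for sgZ3. HAPLN3 passed the low-count filter only through sgZ1, where it is high, so its call over both guides is given as a description. HMMR, a hyaluronan-binding protein of the mitotic spindle, was lower over both guides as well, at 58.8 ± 6.40, 45.7 ± 6.32 and 34.1 ± 11.7 CPM (SD, n = 3, edgeR adjusted p = 0.0201).

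All 7 enzymes of the linker that joins chains to core proteins were tested, and 3 were called higher over both guides and 0 lower (background 18.6% and 14.6%). PXYLP1, a phosphatase of the linker xylose, was at 3.19 ± 0.315 CPM in sgC, 5.21 ± 0.393 in sgZ1 and 5.10 ± 0.0936 in sgZ3 (SD, n = 3). The glucuronosyltransferase B3GAT3 stood at 26.6 ± 1.23, 34.7 ± 2.51 and 40.3 ± 6.40 CPM, and the galactosyltransferase B4GALT7 at 25.5 ± 1.42, 25.6 ± 3.74 and 39.3 ± 2.49 CPM (SD, n = 3). Their log2 fold changes over both guides were 0.69, 0.49 and 0.32 (edgeR adjusted p = 0.00235, 0.00551 and 0.0324). PXYLP1 and B3GAT3 also passed with each guide, while B4GALT7 passed in sgZ3 (0.63, edgeR adjusted p = 0.00228) and not in sgZ1 (0.0098, 0.96). Of the polymerisation genes beside EXT1 and EXT2, 2 were tested and EXTL3, which adds the first N-acetylglucosamine, rose with each guide. It was at 33.1 ± 0.811 CPM in sgC, 47.7 ± 2.83 in sgZ1 and 52.3 ± 0.725 in sgZ3 (SD, n = 3), log2 fold changes of 0.53 and 0.66 (edgeR adjusted p = 0.000951 and 0.000395).

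Besides NDST1 and HS3ST1, 6 of 16 modification genes were tested, and 2 were higher and 1 lower over both guides (background 18.6% and 14.6%). The 2 include HS6ST2, which the low-count filter let in only through sgZ1, so this count is a description. HS6ST2, a 6-O-sulfotransferase, was at 16.6, 17.0 and 16.4 CPM in sgZ1, while sgC held 0.341, 0.482 and 0.426 CPM and sgZ3 held 0.338, 0.217 and 0.913 CPM. The sgZ1 libraries thus stood apart from both other groups, as they did in HAPLN3. Its log2 fold change was 5.31 in sgZ1 and 0.28 in sgZ3, given as a description because HS6ST2 too passed the filter only through sgZ1. Its relative HS6ST1 rose from 30.1 ± 0.744 CPM to 41.1 ± 5.74 and 40.3 ± 2.49 CPM (SD, n = 3), with edgeR adjusted p = 0.0107 and 0.0126. HS2ST1, the 2-O-sulfotransferase, was lower over both guides, at 119 ± 4.03, 90.3 ± 13.3 and 97.4 ± 15.2 CPM in sgC, sgZ1 and sgZ3 (SD, n = 3, edgeR adjusted p = 0.0323).

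Of 10 tested core proteins other than the 2 syndecans above, 2 were higher and 1 lower over both guides (background 18.6% and 14.6%). HSPG2 (perlecan), a basement membrane proteoglycan, was lower, at 35.2 ± 4.17 CPM in sgC, 26.6 ± 2.56 in sgZ1 and 19.4 ± 4.59 in sgZ3 (SD, n = 3, edgeR adjusted p = 0.00506). GPC1, a lipid-anchored glypican, was at 119 ± 5.53, 146 ± 22.1 and 148 ± 12.3 CPM (SD, n = 3, edgeR adjusted p = 0.0343). COL18A1, a basement membrane collagen that carries heparan sulfate, was at 1.46, 0.964 and 1.02 CPM in sgC, 11.0, 14.3 and 13.4 CPM in sgZ1 and 1.22, 1.41 and 9.84 CPM in sgZ3. The high sgZ3 library is replicate 3, which carries the mesenchymal transcripts. Over both guides its log2 fold change was 2.68 (edgeR adjusted p = 0.0249), and for sgZ3 alone it was 1.89 (0.0995).

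Among 9 tested enzymes of lysosomal and extracellular heparan sulfate breakdown, 2 were higher and 1 lower over both guides (background 18.6% and 14.6%). The sulfatase gene ARSG was at 1.78 ± 0.342, 3.54 ± 0.647 and 2.27 ± 0.399 CPM, and the iduronate sulfatase gene IDS at 24.6 ± 0.976, 26.9 ± 4.15 and 36.9 ± 6.08 CPM in sgC, sgZ1 and sgZ3 (SD, n = 3). The edgeR adjusted p over both guides was 0.021 for ARSG and 0.0425 for IDS. Between the guides 6 of the 9 were higher in sgZ3, among them HPSE (0.58), GUSB (0.50), IDS (0.45), NAGLU (0.73) and HGSNAT (0.56), and ARSG was lower (-0.63, log2 differences). Over all genes 12.8% were called higher and 15.8% lower there. HPSE, GUSB, NAGLU and HGSNAT are named after their values were seen. HPSE, which cleaves extracellular chains, was at 57.2 ± 1.26 CPM in sgC, 51.2 ± 4.07 in sgZ1 and 76.6 ± 2.46 in sgZ3 (SD, n = 3).

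The chondroitin and dermatan sulfate enzymes share the linker and donors with heparan sulfate. Of these enzymes, 4 of 16 were higher and 1 lower over both guides (background 18.6% and 14.6%). The 4 include CHST15, which the low-count filter let in only through sgZ1, so this count is a description. CHPF2, a chain polymerising factor, was at 48.4 ± 2.11, 53.3 ± 6.43 and 91.7 ± 2.74 CPM in sgC, sgZ1 and sgZ3 (SD, n = 3), and CHSY3, a chain synthase, at 11.2 ± 0.652, 11.0 ± 0.852 and 17.7 ± 1.45 CPM. CHST15, which adds a 6-O-sulfate to already sulfated units, was at 10.4, 12.8 and 10.8 CPM in sgZ1, while sgC held 0.341, 0.375 and 0.0853 CPM and sgZ3 held 0, 0.163 and 0.406 CPM. CHST11, named after its values were seen, was at 0.554 to 1.12 CPM in sgC, 4.80 to 5.72 CPM in sgZ1 and 0.163 to 1.42 CPM in sgZ3. Both sulfotransferase transcripts were higher in every sgZ1 library than in any other library, and for CHST11 the difference between the guides passed (-2.76, edgeR adjusted p = 0.000544). CHST15 passed the low-count filter only through sgZ1, so its log2 fold change there (5.43) is given as a description. CSGALNACT1, which starts the chondroitin chain, fell from 9.22 ± 0.706 CPM to 5.53 ± 0.718 and 6.31 ± 1.16 CPM (SD, n = 3, edgeR adjusted p = 0.00465 over both guides).

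Of 14 genes that supply sugar nucleotides and activated sulfate, 3 were higher and 1 lower over both guides (background 18.6% and 14.6%). GFPT1, the rate-limiting enzyme of UDP-N-acetylglucosamine synthesis, fell with each guide, from a control level of 311 ± 21.7 CPM to 209 ± 15.4 and 246 ± 18.1 CPM (SD, n = 3, edgeR adjusted p = 0.000888 and 0.0157). Its paralogue GFPT2 rose from 3.14 ± 0.905 to 7.11 ± 0.667 and 4.81 ± 0.492 CPM (SD, n = 3, edgeR adjusted p = 0.000956 and 0.0326). SLC35B2, a Golgi transporter of activated sulfate, was at 315 ± 26.1, 321 ± 59.2 and 542 ± 41.3 CPM, and UAP1, which makes UDP-N-acetylglucosamine, at 67.7 ± 3.20, 86.5 ± 14.9 and 82.2 ± 2.25 CPM (SD, n = 3). Over both guides their log2 fold changes were 0.41 and 0.32 (edgeR adjusted p = 0.0159 and 0.0308). GFPT1 and GFPT2 catalyse the same step, and the more abundant of them fell while the scarcer rose.

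**Figure D4:**
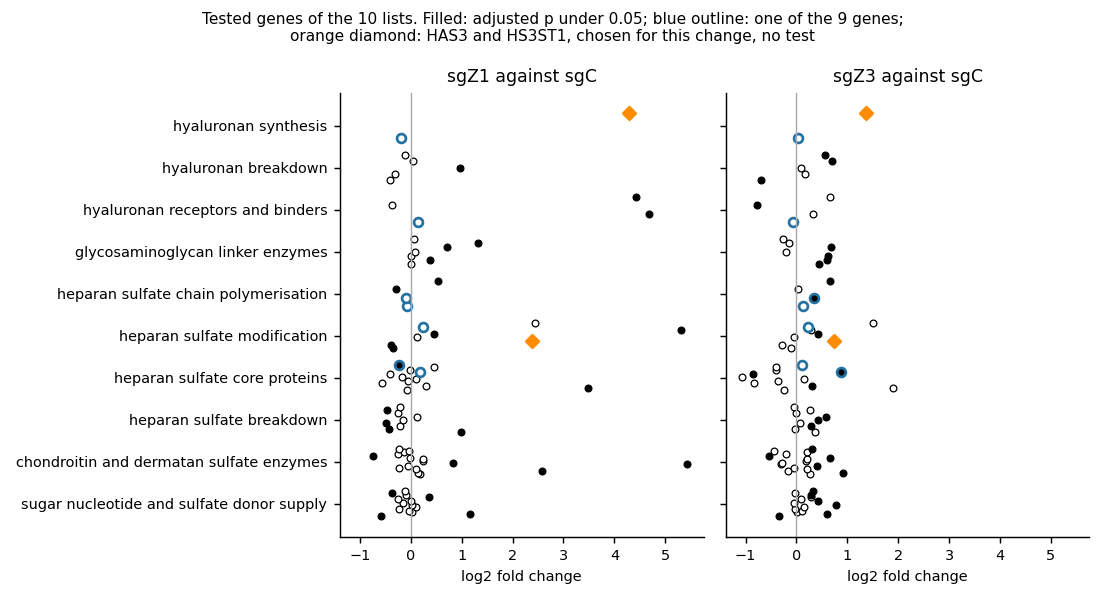
Log2 fold change (x axis) of every tested gene of the 10 lists (y axis) in sgZ1 and in sgZ3 against the same sgC libraries, filled at adjusted p under 0.05, with blue outlines for members of the 9 genes and orange diamonds for HAS3 and HS3ST1. The genes above 4 for sgZ1 are HAS3, HAPLN3, VCAN, HS6ST2 and CHST15, while no gene exceeds 2 for sgZ3. HAPLN3, VCAN, HS6ST2 and CHST15 passed the low-count filter only through sgZ1, so their fill there is a description and not a test.

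Across the 9 libraries, the genes nearest to HAS3 and HS3ST1 were found by the root mean square difference of log2 CPM, each gene centred on its own mean, over 11847 genes with a mean of at least 2 CPM across the libraries. This is a description, and all values share the same libraries. Nearest to HAS3 were PWP2 (0.41), a ribosome assembly gene with a near-identical copy whose counts are uncertain, the pseudogene PTMAP2 (0.48), also uncertain for reads of its parent gene, DDN (0.58), METRN (0.59) and TNNT1 (0.60). In sgZ3 against sgC the log2 fold changes of these genes, as named, were 0.99, 0.30, 0.21, 0.17 and 0.018, against 1.37 for HAS3. PWP2 was at 0.454 ± 0.120, 6.91 ± 0.411 and 0.903 ± 0.257 CPM in sgC, sgZ1 and sgZ3 (SD, n = 3). Nearest to HS3ST1 were CAV1 (0.15), a protein of caveolae, STMN3 (0.19), PCOLCE2 (0.19), CTXN1 (0.24) and TTYH2 (0.25). Their log2 fold changes in sgZ3 against sgC were 0.43, 0.47, 0.61, 0.39 and 0.53, against 0.73 for HS3ST1. CAV1 was at 36.8 ± 1.30, 175 ± 12.4 and 49.4 ± 2.12 CPM in sgC, sgZ1 and sgZ3 (SD, n = 3). PWP2, PTMAP2, DDN and TTYH2 were under 2 CPM in every sgC and sgZ3 library, so they met the minimum mean through sgZ1. METRN did so too, with means of 1.70 CPM in sgC, 19.4 CPM in sgZ1 and 1.87 CPM in sgZ3.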

How the data were processed

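Poly(A) RNA of 9 DLD1 libraries was analysed, 3 per guide, grouped and numbered by the sample titles. One sgC sample whose description names the ribosomal RNA table was kept among them by its title and molecule. The authors deposited raw read counts, whole numbers for every gene in each library. Among tools, HTSeq, SAMtools 1.9, DESeq2 and STAR 2.5.2b are listed without roles in the submitters' processing notes, with GRCh38 and hg38 as builds. Which annotation release and which strand setting were used is not given in the sources used here. The ribosomal RNA table was not used here.

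Counts were fitted in R 4.3.3 with edgeR 4.0.16 (limma 3.58.1): filterByExpr, TMM factors and robust quasi-likelihood tests over all 9 libraries with group as the only term. P-values were adjusted by Benjamini-Hochberg over 14732 genes, and an adjusted p under 0.05 made a call. The biological coefficient of variation was 12.7%. Medians and counts describe the lists, with no set test. Coordinates and exon lengths came from GENCODE 29, which held 95.34% of the 46984 gene IDs, and promoter sequences from RefSeq. The steps were tested on simulated counts. Replicates differed by 4.19 to 32.7 chi-square units per gene, so no library was a repeat of another.

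The genes, lists and marker sets were chosen with earlier results of these data known. Besides the 9 genes, the text names up to 4 genes per list with the smallest adjusted p over both guides among those called there, and for HAS3 and HS3ST1 the 5 nearest profiles of log2 CPM (prior count 0.5). Of the genes this rule takes, 1 is not reported here. Alternatives were DESeq2 1.42.0, RLE, upper-quartile and no scaling factors, no low-count filter, a false discovery rate under 0.01, only the compared groups, the replicate number as a block, and leaving out libraries.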

Additional observations from a re-analysis of the deposited data

Results flagged for a closer look

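The effects of the 2 guides differed for 5 of the 9 genes, by edgeR's quasi-likelihood test of sgZ3 against sgZ1, which tests that difference itself since both share the sgC libraries. HAS3 and HS3ST1 had been picked on values of the same libraries. Of the 7 genes chosen by function, 3 were higher and 0 lower, where 12.8% and 15.8% of all genes were called. HAS3 was lower in sgZ3 than in sgZ1 by a log2 difference of -2.92 (adjusted p = 3.42e-08), and HS3ST1 by one of -1.66 (adjusted p = 1.43e-07). The 2 genes selected for a rise with both guides therefore differed between the guides in size. SDC1 (0.71, adjusted p = 0.000156), EXT2 (0.44, adjusted p = 0.00231) and SDC4 (0.34, adjusted p = 0.00512) were higher in sgZ3. In each of the 5 genes all 3 sgZ3 libraries lay on one side of all 3 sgZ1 libraries. EXT1, which did not pass, separated in the same way, and the share of all genes that do so was not counted. MSH6 and PAX2 were high in sgZ1, and the part of whatever sets these libraries apart was not tested.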

How the results depend on the processing

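Over the 9 genes and 4 comparisons, 639 alternative values were computed. Of these, 622 counted as the same, 11 lost a call, 4 gained one and 0 called values reversed. Same means on the same side of the threshold or, for HAS3 and HS3ST1 values without a test, moved by no more than the replicate spread. Among the 622 are 25 that changed sign, all of values that passed no test. The 2 values that moved further were HS3ST1 with library totals alone, at 1.46 over both guides and 0.57 in sgZ3. Of the 7 genes chosen by function, 1 was called over both guides in every alternative. In sgZ1 against sgC, 1 was called as reported and 0 at a false discovery rate under 0.01, with no low-count filter or with the replicate number as a replicate block (SDC4 adjusted p = 0.0501), 0 to 1 when 1 library was left out, and 2 without both libraries with mesenchymal transcripts (1 higher, 1 lower). In sgZ3 against sgC, 2 were called as reported, 1 with library totals alone and 1 to 3 over all alternatives. Between the guides 5 of 9 were called, and 5 to 6 over the alternatives. Same-numbered libraries correlated from -0.323 to 0.514, with 5 of 9 pairs over 0.1 (median 0.142, against -0.119 for different numbers, 5 of 18 over 0.1), so the rule for pairing was not met, and not every library correlated best with its own number. The replicate block raised the calls over all genes from 4885 to 5488 over both guides, 3807 to 4202 in sgZ1, 5355 to 5974 in sgZ3 and 4209 to 5005 between the guides. Calls over all genes depended on the libraries: over both guides 4885 became 2201 without sgC replicate 1, 2389 without sgC replicate 3 and 7409 without both libraries with mesenchymal transcripts, and 2278 at a false discovery rate under 0.01. In sgZ1, 3807 became 2005 at that rate, 2129 and 2466 without sgC replicates 1 and 3, and 5894 without both. In sgZ3, 5355 became 2609, 3097 and 3083, 3224 and 3080 without sgZ3 replicates 1 and 2, and 8246. Between the guides 4209 became 2254, 2501 without sgZ1 replicate 1, 2690 and 2636 without sgZ3 replicates 1 and 2, and 7932. Of the 25 other named genes, 12 lost no call in 17 alternatives each. A fit of only the compared groups gave no separate value for both guides, which use all groups. The cause of these changes was not tested. Depth limits HAS2 and, in sgC, HAS3 most.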

Other observations

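Other heparan sulfate genes were found almost wholly in the 2 libraries with mesenchymal transcripts, and they are named after their values were seen. SULF1, an extracellular 6-O-endosulfatase, was at 3.44 CPM in sgZ1 replicate 2 and 3.76 CPM in sgZ3 replicate 3, while the other 7 libraries held 0.0932 CPM or less. HS3ST3A1, another 3-O-sulfotransferase, stood at 0.819 and 1.27 CPM there and did not exceed 0.0487 CPM elsewhere. Neither gene passed the low-count filter. SULF2, the other endosulfatase, ranged from 0.256 to 0.341 CPM in sgC. Its sgZ1 libraries held 1.72, 2.42 and 0.838 CPM and its sgZ3 libraries 0.0677, 0.271 and 2.13 CPM, and it was called with neither guide. SULF2 passed the low-count filter only through sgZ1, so its values are a description.

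VCAN, which encodes the hyaluronan-binding proteoglycan versican, was at 3.21, 2.25 and 3.25 CPM in sgZ1, with no more than 0.341 CPM in sgC, and sgZ3 held 0, 0 and 0.558 CPM. XYLT1, which starts the linker on the core protein, had means of 0.898 ± 0.0585 CPM in sgC, 2.27 ± 0.771 in sgZ1 and 0.807 ± 0.262 in sgZ3 (SD, n = 3). XYLT1 was higher in sgZ1 than in sgC (edgeR adjusted p = 0.00661) and lower in sgZ3 than in sgZ1 (0.00429). VCAN passed the low-count filter only through sgZ1, so its values are a description. HYAL1, a lysosomal hyaluronidase, was at 0.692 ± 0.141, 1.37 ± 0.263 and 0.745 ± 0.118 CPM (SD, n = 3, edgeR adjusted p = 0.0184 in sgZ1 and 0.0286 between the guides).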
